A study of Mus musculus with 7 samples.

Results

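Hox genes were measured in the cells of JW23.3 malignant peripheral nerve sheath tumors (MPNSTs) grown as allografts in mice. The group comprised every feature whose symbol is Hoxa, Hoxb, Hoxc or Hoxd followed by a number, which gave 39 of 33696 features: 11 in the HoxA cluster, 10 in HoxB, 9 in HoxC and 9 in HoxD. Their UMI counts, that is the numbers of distinct captured transcripts, were summed in tumor cells, fibroblasts, pericytes, endothelial cells and immune cells of each tumor. The cell classes were set by marker genes, and no Hox count entered the gates.

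JW23.3 is a mouse MPNST line mutant for Nf1, and all tumors came from this 1 line. Female C57/B6 wildtype mice aged 5 to 6 weeks received JW23.3 cells subcutaneously in the flank. The 3 control tumors were not irradiated and the 4 irradiated tumors (labelled 2Gyx5) received 5 daily fractions of 2 Gy, with shielding of the rest of the body, and all 7 were collected on day 21, dissociated with papain and profiled with a droplet 3′ assay, 1 library a tumor. The study asked how radiation changes these tumors and their microenvironment, and the class comparisons below set the line against the host cells of the same tumor.

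Hox genes encode homeodomain transcription factors that give cells their position along the body axis. They lie in clusters in which the order on the chromosome mirrors the order of expression from head to tail, with low-numbered genes used first and most anteriorly and high-numbered genes used last and most posteriorly. Adult mesenchymal and endothelial cells keep part of the Hox pattern of the place they came from, and neural crest derivatives such as Schwann cells, the lineage of MPNST, keep that of their level of origin. Genes of the same number in different clusters are paralogs that descend from 1 ancestral gene. Hox proteins bind DNA together with TALE homeodomain partners of the Pbx, Meis and Pknox families, and silent clusters carry Polycomb marks.

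The clusters span 105 kb of chromosome 6 (HoxA, chr6:52155590-52260880), 174 kb of chromosome 11 (HoxB, chr11:96194316-96368256), 116 kb of chromosome 15 (HoxC, chr15:102921103-103036852) and 96.8 kb of chromosome 2 (HoxD, chr2:74668310-74765142), in GRCm38 coordinates. Gene models of Hoxc5 and Hoxc10, and of Hoxd3 and Hoxd4, share exon sequence on 1 strand, so reads there cannot be given to 1 gene. The 3 promoters below belong to genes from 3 settings described in turn. Hoxd8 leads the counts in tumor cells and Hoxb4 those in immune cells. Hoxb8 belongs to a block of HoxB genes near 0 in tumor cells and high in endothelial cells, and does not lead there. Each line gives the 250 bases before the start site from the RefSeq table for GRCm38.p6, on the plus strand, with CpG pairs in capitals, since CpG-dense promoters are the ones that Polycomb complexes mark.

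Hoxd8: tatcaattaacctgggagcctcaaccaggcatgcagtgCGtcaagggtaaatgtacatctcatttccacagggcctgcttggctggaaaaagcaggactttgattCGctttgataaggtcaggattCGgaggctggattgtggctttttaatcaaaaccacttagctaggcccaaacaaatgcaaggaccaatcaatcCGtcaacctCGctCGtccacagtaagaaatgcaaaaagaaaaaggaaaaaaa
Hoxb8: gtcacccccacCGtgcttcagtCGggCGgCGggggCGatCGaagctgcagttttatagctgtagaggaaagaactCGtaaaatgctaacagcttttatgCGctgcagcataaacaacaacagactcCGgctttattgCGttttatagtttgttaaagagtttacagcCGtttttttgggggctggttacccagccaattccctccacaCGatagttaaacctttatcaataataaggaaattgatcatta
Hoxb4: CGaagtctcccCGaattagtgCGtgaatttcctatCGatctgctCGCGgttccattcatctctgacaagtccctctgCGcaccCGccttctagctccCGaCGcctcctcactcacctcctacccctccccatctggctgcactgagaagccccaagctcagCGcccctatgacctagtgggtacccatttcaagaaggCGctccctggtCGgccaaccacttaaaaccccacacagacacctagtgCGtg

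The Hoxd8 window (chr2:74704365-74704614) held 6 CpG pairs, the Hoxb8 window (chr11:96281655-96281904) 12 and the Hoxb4 window (chr11:96318017-96318266) 14. Of all promoter windows in the table, 49.6% held fewer CpG pairs than Hoxd8, 66.5% fewer than Hoxb8 and 70.6% fewer than Hoxb4. The table held a window for 22 of the 39 genes (24 windows), with a median of 12.5 CpG pairs against 6 over all windows. The composite Pbx-Hox motif TGATTNAT, searched on both strands, was in 2 of the 24 Hox windows (8.33%), those of Hoxa2 and Hoxd11, and in 928 of 32841 windows overall (2.83%). None of the 3 printed windows held these letters.

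The 7 libraries held 39537 cells with 646559899 UMIs, and 34300 cells passed the cell filter. A library had 2342 to 7451 cells after the filter, and its median cell had 6863 UMIs in control 2 and 21501 in control 1, with the others between. Library pairs shared 3 to 19 cell barcodes. The gates took 12921 tumor cells, 283 fibroblasts, 187 pericytes, 403 endothelial cells and 12841 immune cells, most of the last being macrophages (11115), and left 7665 cells ungated. Of the gated tumor cells 27.0% carried exactly the fewest markers the gate allowed, against 12.4% of fibroblasts, 4.81% of pericytes, 1.24% of endothelial cells and 1.18% of immune cells. Levels are given as CPM, the UMIs of a gene as a share of all UMIs of a class in a library, in counts per 1e+06. A library with fewer than 20 cells of a class was left out for it, which removed control 1 and irradiated 2 for fibroblasts, irradiated 4 for pericytes and irradiated 2 for endothelial cells.

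The tumor list (11 markers, led by Crabp1 at 1653 CPM, Col11a1 at 1607 CPM and H19 at 708 CPM) summed to 3503 to 4760 CPM over the libraries in tumor cells, against 180 to 506 in fibroblasts, 26.1 to 101 in pericytes, 36.6 to 538 in endothelial cells and 33.3 to 234 in immune cells. Defining Schwann lineage markers on the list were near 0 in the tumor cells themselves, with Sox10 at 0.0356 CPM, Ngfr at 0.0383 CPM and Erbb3 at 0.137 CPM, so the class rests on the other markers and on Xist. In fibroblasts 9 of the 11 tumor markers were found, among them Col11a1 at 120 CPM and H19 at 175 CPM. The fibroblast list (11 markers) summed to 3703 to 5846 CPM in fibroblasts but also to 696 to 2707 CPM in pericytes, where all 11 were found. The pericyte list (10 markers) summed to 7154 to 11454 CPM in pericytes and to 22.3 to 87.2 CPM in fibroblasts, where Higd1b was at 0. Of 8 keratinocyte markers, 7 were found in tumor cells, 7 in immune cells and 4 in fibroblasts. Krt10 was at 8.03 CPM in tumor cells and 12.5 CPM in fibroblasts, and Krt5 was at 0 in all 5 classes.

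Tumor cells held far less Hox RNA than the stromal cells beside them, and a different mixture of clusters. Summed over the 39 genes, tumor cells had 68.5 ± 6.87 CPM (SD, n = 7), fibroblasts 644 ± 145 (n = 5), pericytes 547 ± 80.6 (n = 6), endothelial cells 589 ± 61.6 (n = 6) and immune cells 10.2 ± 0.966 (n = 7). The lowest tumor cell library was at 56.4 CPM and the highest at 78.1, whereas the lowest library of the 3 stromal classes was at 426. Immune libraries lay between 9.05 and 12.1. The sums of the tumor, stromal and immune libraries did not overlap, while those of fibroblasts, pericytes and endothelial cells did.

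**Figure D1:**
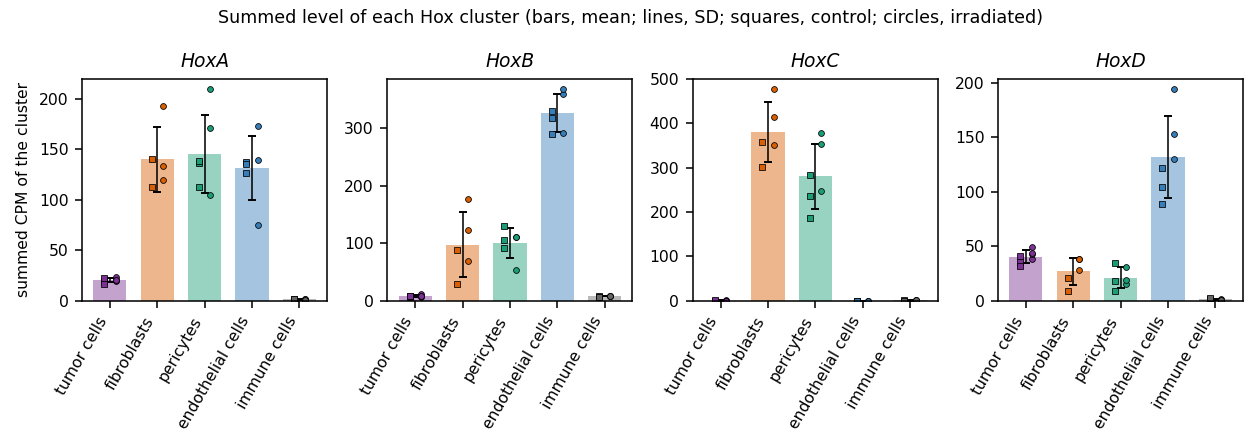
Summed CPM of the HoxA, HoxB, HoxC and HoxD genes in each cell class, with bars as means over libraries, vertical lines as SD, squares as control tumors and circles as irradiated tumors. HoxD leads in tumor cells (40.3 CPM), HoxC in fibroblasts (381) and pericytes (281), and HoxB in endothelial cells (326).

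HoxD genes gave 58.1% of the Hox UMIs of tumor cells, HoxA genes 30.3%, HoxB genes 11.5% and HoxC genes 0.179%. In fibroblasts HoxC gave 61.2% and HoxD 3.94%. Pericytes were close to fibroblasts in this mixture, with 52.7% from HoxC and 3.52% from HoxD. Endothelial cells drew 55.8% from HoxB, 22.8% from HoxA and 21.4% from HoxD, and held no HoxC UMI. The 3302028 UMIs of that class allow a HoxC level of up to 0.909 CPM (3 UMIs). Immune cells drew 77.6% of their few Hox UMIs from HoxB.

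**Figure D2:**
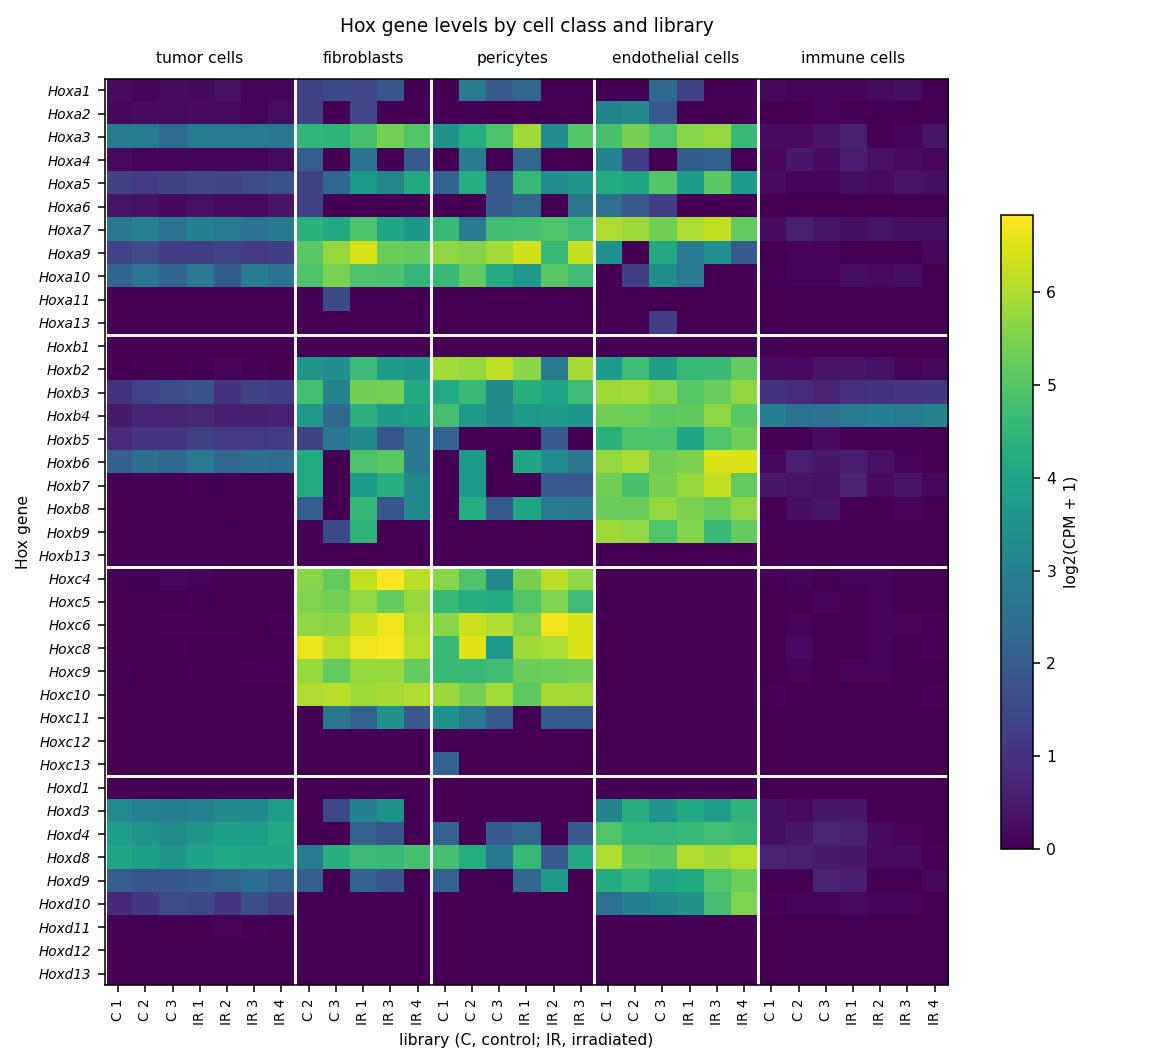
Level of each of the 39 Hox genes, as log2(CPM + 1), in every cell class and library (C, control; IR, irradiated), with white lines between gene clusters and between classes. HoxC rows are filled in fibroblasts and pericytes and empty in endothelial cells, and in immune cells Hoxb4 is the 1 gene above a mean of 1 CPM.

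At a mean of at least 1 CPM with over 3 UMIs, 13 of the 39 genes were found in tumor cells, 25 in fibroblasts, 23 in pericytes, 21 in endothelial cells and 1 in immune cells. In tumor cells these were Hoxa3, Hoxa5, Hoxa7, Hoxa9, Hoxa10, Hoxb3, Hoxb5, Hoxb6, Hoxd3, Hoxd4, Hoxd8, Hoxd9 and Hoxd10. Hoxb13, Hoxc12 and Hoxd12 had no UMI in any of the 5 classes, and Hoxa11, Hoxa13, Hoxb1, Hoxc13, Hoxd1 and Hoxd13 had 1 to 3 UMIs in all classes together. Paralog groups 12 and 13, which pattern the hindmost body and the tips of the limbs, were therefore at or near the floor in every class.

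Hoxd8 led the tumor cells. It stood at 15.1, 13.4 and 11.2 CPM in control 1 to 3 and at 14.6, 15.8, 15.4 and 15.1 CPM in irradiated 1 to 4 (14.4 ± 1.58). Its neighbor Hoxd4 stood at 13, 10.9 and 9.34 CPM in the controls and at 11.3, 13.4, 13.3 and 16.5 CPM in the irradiated tumors (12.5 ± 2.29). Both genes varied little among tumors, and Hoxd8 UMIs were found in 29.0% of tumor cells and Hoxd4 UMIs in 26.6%. Hoxd3, next to Hoxd4 toward the 3′ end of the cluster, had 8.87, 7.14 and 6.84 CPM in the controls and 7.21, 8.66, 8.59 and 12.9 CPM in the irradiated tumors (8.60 ± 2.05). These 3 neighbors held most of the HoxD counts, and irradiated 4 was the highest library for Hoxd3 and Hoxd4 alike.

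HoxA genes of tumor cells were lower. Hoxa7 had 5.62, 7.12 and 4.97 CPM in the controls and 6.99, 5.85, 4.88 and 5.73 CPM in the irradiated tumors (5.88 ± 0.885). Hoxa3, an anterior gene known for pharyngeal and neck patterning, had 6.31, 6.42 and 4.36 CPM in the controls and 6.37, 6.09, 5.95 and 5.64 CPM in the irradiated tumors (5.88 ± 0.722). Hoxa10, a posterior gene of the trunk, had 3.67, 5.38 and 3.72 CPM in the controls and 6.23, 3.06, 6.31 and 5.07 CPM in the irradiated tumors (4.78 ± 1.30). Anterior and posterior HoxA genes were thus found at similar levels in the same tumors, with the widest relative spread of the 3 in Hoxa10. Hoxa9, which lies between Hoxa7 and Hoxa10, was at 1.52 ± 0.232 CPM.

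Of the HoxB genes, Hoxb6 had 3.09, 4.76 and 4.00 CPM in the controls and 6.16, 3.76, 4.63 and 4.49 CPM in the irradiated tumors (4.41 ± 0.965). Hoxd9 had 3.21, 2.63 and 2.61 CPM in the controls and 3.03, 3.72, 4.58 and 3.54 CPM in the irradiated tumors (3.33 ± 0.694). The genes on both sides of Hoxb6 differed from it sharply: Hoxb5 was at 1.15 ± 0.226 CPM, whereas Hoxb7, Hoxb8 and Hoxb9 gave 7, 2 and 2 UMIs among the 365454831 UMIs of all tumor cells. HoxC gave 44 UMIs in all, 18 of them from Hoxc4 and none from Hoxc11, Hoxc12 or Hoxc13.

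The order of the 8 leading genes was Hoxd8, Hoxd4, Hoxd3, Hoxa7 and Hoxa3 at the same mean, Hoxa10, Hoxb6 and Hoxd9. Neighbors in this order overlapped in their ranges over the 7 libraries, so their order is not fixed. A 3′ assay counts transcript ends and was not corrected for length, so an order among genes also reflects how well each end was captured.

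Fibroblasts were led by HoxC genes of the trunk. Hoxc8 had 98.5 and 67.5 CPM in control 2 and 3 and 101, 105 and 66.5 CPM in irradiated 1, 3 and 4 (87.7 ± 19), with a UMI in 49.1% of cells. Hoxc4 had 47.7 and 35.6 CPM in those controls and 73, 113 and 69.3 CPM in the irradiated tumors (67.7 ± 29.6). Hoxc6 had 50.8, 48.8, 76.5, 100 and 61 CPM in the same order (67.4 ± 21.3). Hoxc10 was the steadiest of the leading genes, with 63.1, 67.5, 55.6, 59 and 63.8 CPM (61.8 ± 4.58). Hoxa9 followed at 48.9 ± 21.7 CPM, then Hoxc9 at 46.4 ± 9.62 and Hoxc5 at 45.3 ± 7.19, and Hoxd8 had a mean of 20 CPM (SD 8.38). Hoxd10 had no UMI in fibroblasts.

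Pericytes, the contractile cells of small vessels, carried the same leading HoxC genes and a high Hoxb2. Hoxc6 had 47.8, 77 and 63.3 CPM in control 1 to 3 and 45.6, 101 and 88.2 CPM in irradiated 1 to 3 (70.5 ± 22.3). Hoxa9 was at 55.7 ± 20.2 CPM and Hoxc10 at 50.9 ± 10.5. Hoxc8 ranged from 11.5 CPM in control 3 to 88.8 in control 2 (55.3 ± 32.2). Its spread was the widest of these genes, with both extremes among the controls. Hoxb2, an anterior gene known from the hindbrain, had 58, 53.3 and 71.9 CPM in the controls and 49.4, 5.96 and 60.7 CPM in irradiated 1 to 3 (49.9 ± 22.8). The fibroblast list reached 696 to 2707 CPM in these cells, and its part in the pericyte levels of HoxC genes was not tested.

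Endothelial cells carried an unbroken run of HoxB genes from Hoxb2 to Hoxb9. Hoxb6 ranged from 39.5 to 86.6 CPM over 6 libraries with a median of 56.8 (61.7 ± 20.6), and Hoxb3 from 31.8 to 58.5 with a median of 49.2 (47.1 ± 10.9). Hoxb8 ranged from 36.6 to 53.2 CPM with a median of 40.8 (43.2 ± 7.29), and Hoxb9 from 23.3 to 57.4 with a median of 40.7 (40.6 ± 13.1). These HoxB genes overlapped in their ranges. Hoxa7 ranged from 35.8 to 73.1 CPM with a median of 58.9 (54.8 ± 14.4), and Hoxd8 from 32.7 to 65.7 with a median of 59.5 (52.6 ± 14.9). Hoxd10 rested on few cells and had 4.99, 6.96 and 8.18 CPM in control 1 to 3 and 10.6, 26.6 and 44.8 CPM in irradiated 1, 3 and 4. Of 29 genes that reached the level above in at least 1 class, 17 had their highest mean in endothelial cells, 7 in fibroblasts, 5 in pericytes and 0 in tumor or immune cells.

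In immune cells Hoxb4, a gene active in blood-forming stem cells, stood alone. It had 6.72, 4.89 and 5.03 CPM in the controls and 6.09, 6.54, 5.96 and 7.3 CPM in the irradiated tumors (6.08 ± 0.878). The next gene, Hoxb3, was at 0.921 ± 0.177 CPM and every other below. Summed Hox RNA was 10.2 ± 1.16 CPM in macrophages and 5.8 ± 1.56 CPM in T/NK cells.

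Grouped by paralog number, tumor cells were led by groups 3, 8 and 4. Group 3 gave 23.3% of their Hox UMIs (16 ± 1.98 CPM), group 4 gave 18.9% and group 8 gave 21.1%, while group 10 gave 9.29% and group 11 gave 0.0284%. Fibroblasts were led by groups of higher number: group 8 gave 18% (115 ± 24.3 CPM), group 9 gave 16.7% and group 10 gave 15.4% (92.3 ± 10.7 CPM). Endothelial cells had group 3 at 17.9% (98.9 ± 10.9 CPM), group 7 at 16.7% and group 8 at 16.2%, with 3.00% from group 10. In immune cells group 4 alone gave 65.6%.

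To set the line against its stroma, summed counts of a library were compared between classes with edgeR's quasi-likelihood test, with the library as a block and p-values adjusted over every gene tested (Benjamini-Hochberg). These comparisons share libraries and classes, so their results are given side by side and not as independent evidence. In tumor cells against fibroblasts (5 tumors), 21 of the 39 genes passed the filter on low counts, and 16 were lower and 2 higher in tumor cells. Of all genes tested 44.2% were called (25.5% higher and 18.7% lower). The median log2 fold change of the tested Hox genes was −2.53, against 0.14 over all genes. The tested genes of HoxA (5 of 5), HoxB (5 of 5) and HoxC (6 of 6) were lower, and the 2 higher genes were in HoxD, out of 5 tested. The 6 HoxC genes (2 to 18 tumor UMIs) and Hoxb2 (8 tumor UMIs) passed the filter through fibroblasts. So did Hoxb4, which was at 0.550 CPM in control and 0.535 CPM in irradiated tumor cells. Hoxd4 and Hoxd10, each with 3 fibroblast UMIs or fewer, passed through tumor cells. The direction of these genes was fixed by the filter, so these counts and the median are a description only. Hoxb6 (log2 fold change −1.67, adjusted p = 0.0142) missed the threshold with DESeq2 (adjusted p = 0.0501) and without control 2 (0.0653), irradiated 1 (0.0937) or irradiated 3 (0.0893).

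The HoxC genes differed most. Hoxc8 was 15892-fold higher in fibroblasts (counting interval 4356 to 131907, 2 UMIs in tumor cells, adjusted p = 3.36e-14), and Hoxc10 was 12234-fold higher (3344 to 101701, 2 UMIs, adjusted p = 1.93e-13). Hoxc5 was 5557-fold higher (1863 to 27275, 3 UMIs, adjusted p = 2.35e-11). Such ratios of pooled CPM and all intervals and floors here cover counting error only, since cells and libraries vary further. Among genes with counts in both classes, Hoxa9 was lower in tumor cells by a log2 fold change of −4.99 (SE 0.321, adjusted p = 9.19e-10) and Hoxa10 by −2.53 (SE 0.294, adjusted p = 1.71e-06). HoxD went the other way for Hoxd4, whose direction the filter fixed, at 12.2-fold higher pooled CPM in tumor cells (4.18 to 59.4 with 3 UMIs in fibroblasts, adjusted p = 0.000321, higher in 5 of 5 tumors). Hoxd10, with 533 UMIs in tumor cells and 0 in fibroblasts, was the other (adjusted p = 0.0463), and it missed the threshold with DESeq2 (adjusted p = 0.235) and without control 2, control 3, irradiated 1 or irradiated 3 (adjusted p 0.0811 to 0.0924). Hoxd8, the leading tumor gene, had a log2 fold change of −0.44 (adjusted p = 0.243), Hoxd3 of 1.2 (adjusted p = 0.112) and Hoxd9 of 0.71 (adjusted p = 0.446), and these did not pass. Hoxd3 did pass with Leiden clusters in place of gates (1.43, adjusted p = 0.00786) and with every gene of at least 1 UMI kept (1.31, adjusted p = 0.0377). The tumor marker list was found in fibroblasts at 180 to 506 CPM, and its part in the fibroblast levels of HoxD genes was not tested.

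Tumor cells against pericytes (6 tumors) gave a like split by cluster, with 43.9% of all genes called (25.7% higher and 18.2% lower). Of 21 Hox genes tested, 14 were lower and 2 higher in tumor cells, with a median log2 fold change of −2.56 against 0.20 over all genes. The 5 tested HoxA genes, 3 of 5 HoxB genes and the 6 tested HoxC genes were lower. Here too the HoxC genes, Hoxb2 and Hoxb4 passed the filter through pericytes. Hoxd4, and Hoxd3 and Hoxd10 (0 pericyte UMIs), passed through tumor cells. The direction of these genes was fixed by the filter, so these counts and the median are a description only. Hoxc8 was 10186-fold higher in pericytes (2749 to 85232, 2 tumor UMIs, adjusted p = 1.52e-17) and Hoxc10 was 9296-fold higher (2503 to 77883, adjusted p = 6.46e-21). The 2 genes higher in tumor cells were Hoxd3, at least 5.02-fold against 0 pericyte UMIs (adjusted p = 0.000161), and Hoxd4, 5.57-fold (2.17 to 20.4, adjusted p = 0.000752), each in 6 of 6 tumors. Hoxd8 did not differ beyond the spread, with a log2 fold change of −0.00 (adjusted p = 0.999).

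Against endothelial cells (6 tumors) no tested Hox gene was higher in tumor cells. Of 18 tested, 17 were lower, where 56.0% of all genes were called (32.5% higher and 23.5% lower), and the median log2 fold change was −3.30 against 0.18 over all genes. Hoxb2, Hoxb7, Hoxb8 and Hoxb9 (2 to 8 tumor UMIs), and Hoxb4, passed the filter through endothelial cells. This fixed their direction, so the count is a description. The posterior HoxB genes among them were furthest apart: Hoxb8 was 7913-fold higher in endothelial cells (2151 to 65973, 2 tumor UMIs, adjusted p = 7.7e-17), Hoxb9 7858-fold (2136 to 65516, 2 tumor UMIs, adjusted p = 8.52e-17) and Hoxb7 2229-fold (1054 to 5646, 7 tumor UMIs, adjusted p = 3.99e-16). The promoter printed above for Hoxb8 lies in this block. HoxD was lower too, though less so, with Hoxd8 at a log2 fold change of −1.79 (SE 0.179, adjusted p = 2.84e-09), Hoxd4 at −0.96 (SE 0.216, adjusted p = 0.000505) and Hoxd3 at −0.76 (SE 0.283, adjusted p = 0.025). Hoxd3 missed the threshold with every gene of at least 1 UMI kept (adjusted p = 0.0858) and without control 2 (0.119), irradiated 1 (0.0966) or irradiated 4 (0.0723). Hoxa10 was the gene that did not pass, at 0.55 (adjusted p = 0.414).

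Against immune cells (7 tumors) the direction turned. Of 14 Hox genes tested, 12 were higher and 1 lower in tumor cells, where 85.1% of all genes were called (43.1% higher and 42.0% lower). The tested genes other than Hoxb3 and Hoxb4 were below 1 CPM in immune cells and passed the filter through tumor cells. Their direction was fixed by the filter, so these counts are a description only. Hoxd3 was higher by a log2 fold change of 5.34 (SE 0.446, adjusted p = 1.54e-06) and Hoxd8 by 5.10 (SE 0.276, adjusted p = 4.09e-08). Hoxa10 was higher by 5.09 (SE 0.310, adjusted p = 9.91e-08) and Hoxd4 by 5.07 (SE 0.394, adjusted p = 1.1e-06). Hoxb4 was the 1 gene lower in tumor cells, at −3.85 (SE 0.190, adjusted p = 2.03e-08), and its pooled CPM was 11.3-fold higher in immune cells (9.64 to 13.3). Hoxb3 did not pass, at 0.32 (adjusted p = 0.263).

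Between fibroblasts and pericytes fewer Hox genes were tested and called than in the other class comparisons. Of 10 Hox genes tested over 4 tumors, 2 were higher and 1 lower in fibroblasts, and 31.6% of all genes were called (15.5% higher and 16.1% lower). Hoxb2 was lower in fibroblasts, at 14.3 ± 6.83 CPM against 58.8 ± 9.89 in pericytes (log2 fold change −2.0, SE 0.363, adjusted p = 0.000618). Hoxc4 was higher in fibroblasts (67.3 against 32.4 CPM, log2 fold change 1.11, SE 0.306, adjusted p = 0.0117), and so was Hoxc5 (43.5 against 22.6 CPM, 0.94, SE 0.330, adjusted p = 0.0413), each in 4 of 4 tumors. Hoxb2 passed the filter on low counts through pericytes, and Hoxc4 and Hoxc5 passed it through fibroblasts. The direction of these genes was fixed by the filter, so the count is a description only. The count of 3 rests on few tumors: it was 1 without control 3, 1 without irradiated 3, 1 with DESeq2 and 6 with Leiden clusters in place of gates. Hoxc5 missed the threshold without any 1 of the 4 tumors (adjusted p 0.0501 to 0.162). Hoxc8 did not pass (log2 fold change 0.76, adjusted p = 0.0924). It did pass with every gene of at least 1 UMI kept (adjusted p = 0.0237), with Leiden clusters (0.00747) and with gates that ignore Xist (0.0472).

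Fibroblasts and endothelial cells parted by cluster. Of 19 tested over 5 tumors, 8 were higher and 8 lower in fibroblasts, with 47.4% of all genes called (23.8% higher and 23.6% lower). The higher genes were Hoxa9 (log2 fold change 2.97, SE 0.448, adjusted p = 0.000184), Hoxa10 (3.04, SE 0.463, adjusted p = 0.0002) and 6 HoxC genes, which had no endothelial UMI. All of these higher genes passed the filter through fibroblasts. Against 0 endothelial UMIs, Hoxc8 was at least 95.7-fold higher in fibroblasts, Hoxc10 at least 73.7-fold, Hoxc4 at least 70.4-fold and Hoxc6 at least 67.9-fold. The lower genes were led by Hoxd4 (−3.92, SE 0.613, adjusted p = 0.000249), Hoxb9 (−2.86, adjusted p = 0.00323), Hoxb8 (−2.47, adjusted p = 0.00191) and Hoxb7 (−1.89, adjusted p = 0.00386). These named lower genes passed the filter through endothelial cells. For genes that passed through a single class the filter fixed the direction, so the counts are a description only. In fibroblasts against immune cells 15 of 16 tested genes were higher in fibroblasts, beside 62.0% of all genes called (27.1% higher and 34.9% lower), and Hoxb4 did not pass (0.78, adjusted p = 0.0695). Without control 3 Hoxb4 did pass (1.02, adjusted p = 0.0265). Hoxc10, Hoxc5, Hoxc8 and Hoxc4 led, with adjusted p between 5.38e-09 and 1.66e-09, and with every gene of at least 1 UMI kept 23 of 30 tested genes were higher. The tested HoxA, HoxC and HoxD genes were below 1 CPM in immune cells and passed the filter through fibroblasts. Their direction against immune cells was fixed by the filter, so that count too is a description only.

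Tumor cells also stood between stromal and immune cells in the share of single cells with a Hox UMI. As deposited, a UMI of any Hox gene was found in 72.2% of tumor cells (95% Wilson interval 71.4 to 73.0), 94.7% of fibroblasts, 93.6% of pericytes, 88.8% of endothelial cells and 7.26% of immune cells. The median depth was 23959 UMIs in tumor cells, 9192 in fibroblasts, 7981 in pericytes, 6206 in endothelial cells and 6612 in immune cells. Thinned to 3000 UMIs a cell, the shares were 18.9%, 84.3%, 81.2%, 78.7% and 2.83%, leaving out 371, 29, 11, 84 and 2317 shallower cells in the same order. The tumor cell share thus fell far more than those of the shallower stromal cells, and stayed above that of immune cells.

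**Figure D3:**
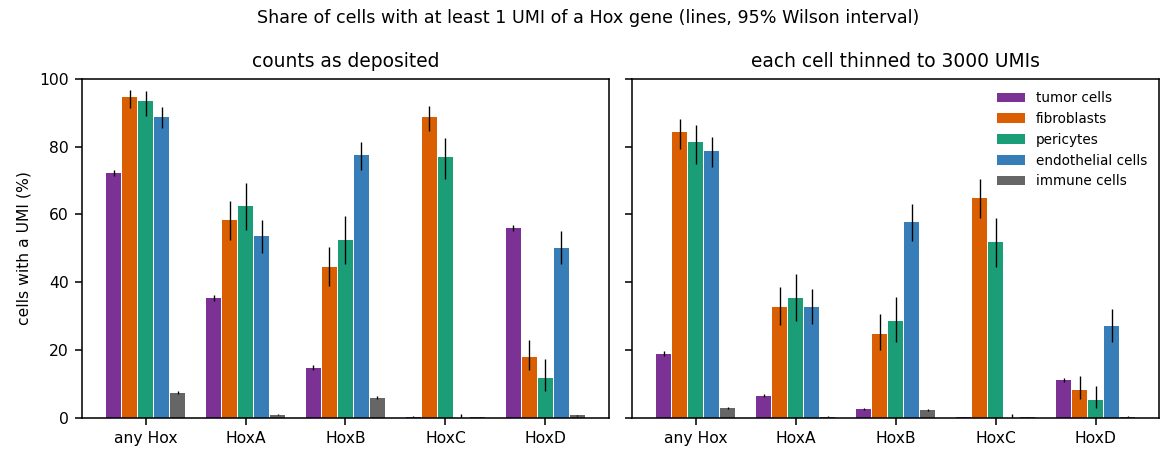
Percent of cells with at least 1 UMI of any Hox gene or of each cluster, as deposited and after thinning every cell to 3000 UMIs, with 95% Wilson intervals as lines. The HoxD share of tumor cells falls from 56.0% to 11.2% on thinning, and the HoxC share of endothelial cells is 0 in both panels.

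By cluster, thinned shares of HoxC were 65.0% in fibroblasts, 51.7% in pericytes, 0.0319% in tumor cells, 0.057% in immune cells and 0 in endothelial cells. The HoxC share of tumor cells was thus no higher than that of immune cells, and no expression is read from it. Of HoxD they were 27.0% in endothelial cells, 11.2% in tumor cells, 8.27% in fibroblasts, 5.11% in pericytes and 0.219% in immune cells. None of the 403 endothelial cells held a HoxC UMI, with an upper Wilson bound of 0.944%. The thinned share of cells with UMIs of at least 2 Hox genes was 1.97% in tumor cells, 53.5% in fibroblasts, 43.2% in pericytes and 45.8% in endothelial cells.

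Tumor cells were not uniform in single Hox genes. Clustering with the Hox genes left out gave 11 clusters with at least 100 gated tumor cells, and their Hox levels are a description with no test, since the clusters and genes below were picked after their values were seen. Hoxd8 was found throughout, between 11.5 and 21.5 CPM. The lowest sum over the Hox genes, 41.6 CPM, was in a cluster led by Ccl5 and Ube2c whose median cell had 3068 UMIs. Hoxd10 was the most uneven: it had 4.75 CPM (225 UMIs) in the cluster led by H2ac24 and Top2a, 4.14 in that led by Lingo2 and Birc5, 3.44 in the shallow Ccl5 cluster and 2.37 (143 UMIs) in that led by Adcy8 and Neto2. In the cluster led by Eln and Abi3bp it had 0.0711 CPM (4 UMIs), and in that led by Col2a1 and Cnmd 0.0573 (2 UMIs). The Top2a cluster was above the Eln cluster in 7 of 7 libraries, with 2.44, 3.8 and 5.14 CPM in its control libraries and 7.72, 3.37, 5.79 and 5.46 CPM in its irradiated ones.

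Hoxa3 was higher in the Col2a1 cluster, whose leading genes are those of cartilage (9.97 CPM), than in the Adcy8 cluster (3.77 CPM), in 6 of 6 libraries with at least 20 cells of both. Hoxa10 was at 9.33 CPM in the cluster led by Npnt and Rerg and at 0.742 CPM in that led by Mdk and Grm7, in 2 of 2 libraries. Pooled over libraries, the Npnt cluster was also the highest in Hoxa7 (13.3 CPM), Hoxa9 (3.70), Hoxb6 (8.41) and in the sum of all Hox genes (87.9). Most of its cells came from control 2 and irradiated 1, so these pooled values largely describe those tumors. Only control 1, control 2 and irradiated 1 had at least 20 cells of it. In each of them Hoxb6 was higher there than in any other cluster of at least 20 cells, by a small margin in irradiated 1. Hoxa7, Hoxa9 and the sum were not compared within libraries.

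**Figure D4:**
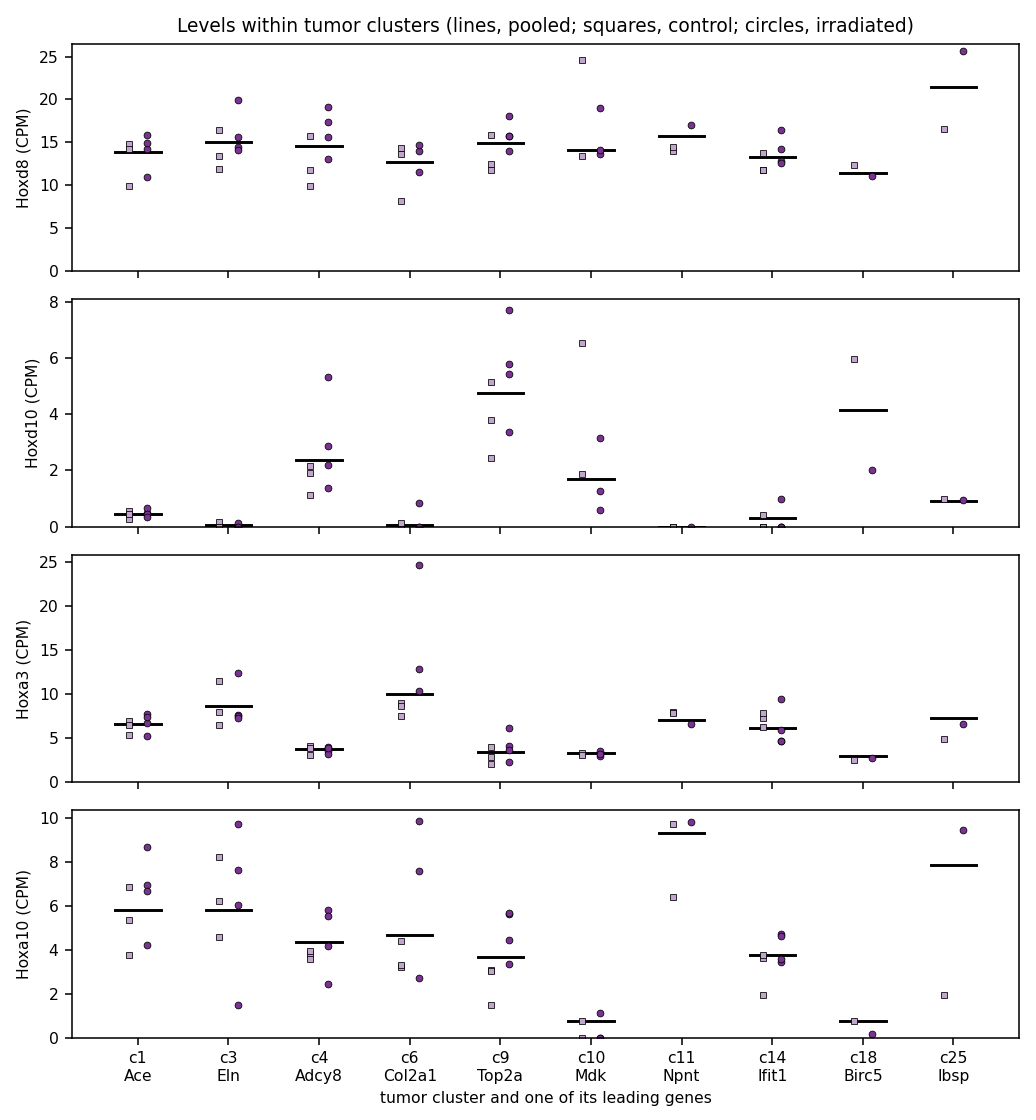
CPM of Hoxd8, Hoxd10, Hoxa3 and Hoxa10 in 10 clusters of tumor cells named by a leading gene, with points for libraries with at least 20 cells and lines for the pooled level. Hoxd8 is present in every cluster, whereas Hoxd10 reaches 4.75 CPM in the Top2a cluster and lies near 0 in the Eln, Col2a1 and Npnt clusters.

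Irradiation called no Hox gene in any class. With edgeR's quasi-likelihood test over 4 irradiated and 3 control tumors, 15 Hox genes were tested in tumor cells, 13 in fibroblasts (3 and 2 tumors), 7 in pericytes (3 and 3), 13 in endothelial cells (3 and 3) and 2 in immune cells, where percent called over all genes was 0.0% in each class. At an unadjusted p under 0.05 there were 0 Hox genes in tumor cells, 1 in fibroblasts and 0 in the other classes, beside 235 genes of all kinds in tumor cells, 434 in fibroblasts, 137 in pericytes, 316 in endothelial cells and 992 in immune cells. DESeq2 called 0 Hox genes in each class as well.

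The smallest unadjusted p-values in tumor cells, 0.112, 0.113 and 0.13, belonged to Hoxd9, Hoxa5 and Hoxd4. Hoxd9 had 3.72 ± 0.649 CPM in irradiated and 2.82 ± 0.340 in control tumors (log2 fold change 0.33, SE 0.185, adjusted p = 1.00). Hoxa5 had 1.45, 1.30 and 1.55 CPM in the controls and 1.79, 1.71, 2.03 and 2.29 CPM in the irradiated tumors, without overlap (0.36, SE 0.203, adjusted p = 1.00). Hoxd4 had 13.6 ± 2.15 CPM in irradiated and 11.1 ± 1.86 in control tumors (0.22, SE 0.131, adjusted p = 1.00). Hoxb5 had 1.31 ± 0.121 CPM in irradiated and 0.952 ± 0.154 in control tumors, also without overlap (0.38, SE 0.248, adjusted p = 1.00). How many of all genes lie apart in this way was not counted, so no result is read from a lack of overlap here or below. The libraries also fall into 2 sets, irradiated 1 with controls 2 and 3 and the rest, which an earlier account of these data called technical and which the labels do not name. Within these sets the irradiated mean was higher by 0.407 and 0.740 CPM for Hoxd9, by 0.363 and 0.565 for Hoxa5 and by 1.17 and 1.34 for Hoxd4. The median log2 fold change of the tested Hox genes in tumor cells was 0.20, against −0.01 over all genes tested.

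Over the 39 genes, irradiated tumors had 72.9 ± 3.97 CPM in their tumor cells and control tumors 62.8 ± 5.56, a difference of 10.1 CPM without overlap. It was 11.1 CPM within irradiated 1 and controls 2 and 3, and 7.2 CPM within the other libraries. In fibroblasts the sum was 721 ± 135 against 529 ± 53.1 CPM, with a difference of 295 within the first set and no control library in the other. In pericytes it was 600 ± 51.5 against 494 ± 71.6 CPM (99.6 and 114 higher within the sets), in endothelial cells 627 ± 62.5 against 550 ± 33.5 (24 and 83.9 higher), and in immune cells 10.2 ± 1.31 against 10.1 ± 0.452, where the difference was 2.2 CPM within the first set and −0.821 within the other. No test was made of these sums. Hoxc4 was the 1 fibroblast gene below an unadjusted 0.05, with 85.1 ± 24.1 CPM in irradiated and 41.7 ± 8.54 in control tumors (log2 fold change 0.94, SE 0.345, adjusted p = 0.764). Endothelial Hoxd10 had 27.3 ± 17.1 CPM in irradiated and 6.71 ± 1.61 in control tumors without overlap, a gene singled out after its values were seen, and the difference was 3.04 CPM within the first set and 30.7 within the other.

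**Figure D5:**
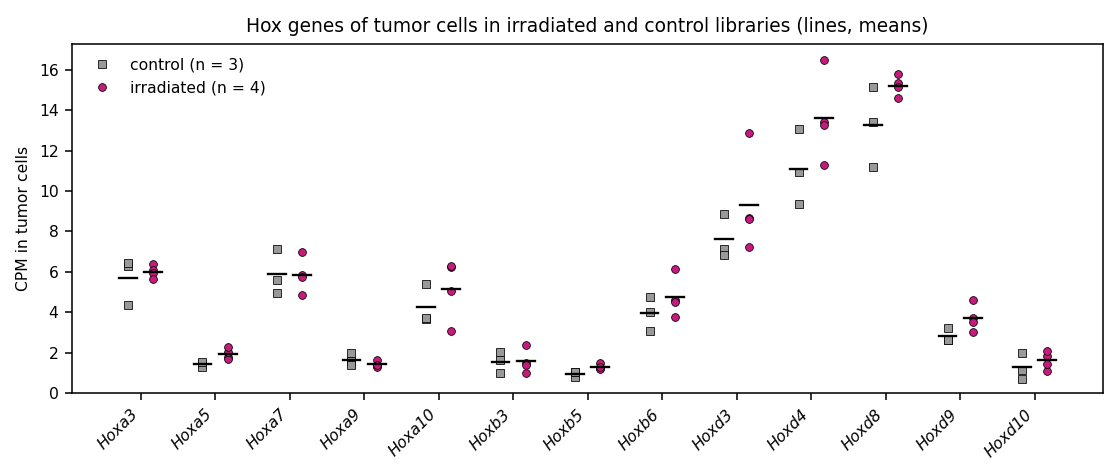
CPM of 13 Hox genes in the tumor cells of control (n = 3) and irradiated (n = 4) tumors, with points for tumors and lines for means. The groups overlap for most genes and lie apart for Hoxa5 and Hoxb5, and no gene passed the test. The share of all genes that lie apart was not counted.

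Partners and regulators of Hox genes were read from the same fits, and their counts are set beside the share of all genes called. In tumor cells against fibroblasts (44.2% of all genes called), of 9 TALE cofactors tested, 1 was higher and 4 were lower, with a median log2 fold change of −0.38 against 0.14 over all genes, and with gates that ignore Xist 0 were higher and 3 lower. Meis1, a DNA-binding partner of Hox proteins, was at 34.2 ± 1.68 CPM in tumor cells and 198 ± 55.3 in fibroblasts (log2 fold change −2.49, SE 0.160, adjusted p = 9.35e-10). Meis3 (−1.70, adjusted p = 0.00263) and Pknox2 (−0.88, adjusted p = 0.00145) were lower, and the 1 higher gene was Pbx3 (0.68, adjusted p = 0.00168). Against endothelial cells (56.0% of all genes called) 6 of the 9 TALE genes were higher and 0 lower in tumor cells, and against pericytes (43.9% called) 4 were higher and 4 lower.

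Of 21 Polycomb and Trithorax regulators tested, 9 were higher and 2 lower in tumor cells than in fibroblasts (median log2 fold change 0.68), where 25.5% of all genes were higher and 18.7% lower. Ezh2, the methyltransferase of Polycomb complex PRC2, was at 79.1 ± 9.08 against 39.2 ± 11.3 CPM (log2 fold change 1.04, SE 0.199, adjusted p = 0.000355). Phf19, an accessory PRC2 subunit, was at 7.64 against 0.308 CPM, the latter from 1 UMI (adjusted p = 0.000601), and the PRC1 subunit Cbx2 had 2 UMIs in fibroblasts (adjusted p = 0.0169). Phf19 and Cbx2 passed the filter on low counts through tumor cells. Their direction was fixed by the filter, so the count of 9, which includes them, is a description only. The lower genes were Jarid2 (−0.92) and Kmt2a (−0.39), the latter a Trithorax methyltransferase that maintains Hox expression. Against endothelial cells 4 were higher and 5 lower.

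Of 10 upstream patterning factors 6 were tested, and 1 was higher and 1 lower in tumor cells than in fibroblasts. These were the retinoic acid receptors Rarg (62.9 against 42.7 CPM, log2 fold change 0.57, adjusted p = 0.0102) and Rarb (6.02 against 18.1 CPM, −1.51, SE 0.386, adjusted p = 0.00405). Of 11 noncoding RNAs of the Hox loci 5 were tested, and 3 were lower (median log2 fold change −3.0). Hotairm1, transcribed from the 3′ end of HoxA, was at 1.10 against 15.6 CPM (−3.79, SE 0.475, adjusted p = 4.28e-06), Hoxb3os fell by 3.52 on the log2 scale (adjusted p = 0.000173) and Hoxaas3 by 3.00 (adjusted p = 0.00144). Hotair, from HoxC, had 1 UMI in tumor cells and 1 in immune cells. Hoxd3os1, beside Hoxd3, was at 13.9 ± 3.44 CPM in tumor cells, between endothelial cells at 25.2 and fibroblasts at 8.10. The sources used here do not say how strand entered the counting, so reads of these antisense RNAs and of the genes that they overlap may not be told apart.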

How the data were processed

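The authors deposited tables of UMI counts, with genes in rows and cells in columns, for 7 mouse tumors (10x Chromium 3′ v3.1, 10000 cells loaded a library). The file headers name Cell Ranger 8.0.0, while the study's methods name an earlier version and the submitters' processing notes list Cell Ranger, Seurat 4.4 and mm10, so the build behind the 33696 features is not certain. Whether intronic reads were counted is not given in the sources used here. Coordinates are those of GENCODE genes matched by identifier (39 of 39).

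Cells were removed if UMIs, genes, mitochondrial or ribosomal share lay over 3 median absolute deviations from the library median. A cell was gated with at least 3 markers of its own list and fewer than 3 of the others, at least 1 Xist UMI for host cells and 0 for tumor cells, since the hosts were female. Markers that another class also carried in these tumors were left out of the gates after marker counts were seen, and the tumor and pericyte gates ignored the fibroblast list. Scrublet (scanpy 1.11.5) marked 720 of 34300 cells (2.10%) as doublets, which were kept except in 1 alternative. Leiden clustering (resolution 1) used 3000 variable genes, 30 components and 20 neighbors, with Hox genes left out.

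Counts were summed per library and class (at least 20 cells) and tested with edgeR 4.0.16 (R 4.3.3; filterByExpr, TMM, robust quasi-likelihood, Benjamini-Hochberg threshold 0.05 over all genes), checked on simulated counts, with DESeq2 1.42.0 as an alternative. Class tests had the library as a block, irradiation tests no covariate. The labels call the tumors biological replicates, and p-values measure the spread between tumors of 1 line. Genes named with values per library were the 8 highest in tumor cells, the 4 highest in each other class, up to 4 called genes with the largest change in each direction of a comparison, the 3 smallest p for irradiation in tumor cells, and up to 3 called genes of each other list. The members, lists and technical sets were chosen with earlier results of these data known. Alternatives were another tool, filter, gate, clustering, doublet removal, thinning to 3000 UMIs, a technical term, a replicate block and leaving out each library. No columns of other series were present. Some items of the line's genotype and of the marker lists are not reported here. Sequences are from the RefSeq promoter table.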

Additional observations from a re-analysis of the deposited data

Results flagged for a closer look

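Single libraries stood far from the others of their class for 10 of 119 groups of values tested, where chance gives about 1 in 20. In tumor cells Hoxa3 was at 4.36 CPM in control 3, against 5.64 to 6.42 in the others, and Hoxd3 was at 12.9 CPM in irradiated 4, against 6.84 to 8.87. In fibroblasts both came from irradiated 1, where Hoxb2 was at 24.3 CPM against 9.38 to 12.8, and Hoxb9 at 20.9 CPM against 0 to 1.88. In pericytes Hoxa7 was at 5.92 CPM in control 2 against 23.9 to 29.8, and Hoxb7 was at 11.8 CPM there against 0 to 2.98. Pericyte Hoxb2 was at 5.96 CPM in irradiated 2 against 49.4 to 71.9, and Hoxd9 at 11.9 CPM there against 0 to 3.80. Pericyte Hoxb4 was at 27.3 CPM in control 1 against 8.63 to 11.9. These pericyte libraries held 23 to 26 cells each. Summed HoxD RNA of immune cells was 1.88 CPM in irradiated 1, against 0.154 to 0.380 in the other irradiated tumors and 1.06, 1.08 and 2.10 in controls 1 to 3, so irradiated 1 lay within the range of the controls.

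Cells outside the 5 classes also held Hox UMIs. The 83 cells with keratinocyte markers held 147 Hox UMIs, of which 60 were of Hoxb2 (27.4 CPM), 37 of Hoxb3 (16.9 CPM) and 34 of Hoxb4 (15.5 CPM), above the limit of 3 counts. These 3 genes are neighbors in the HoxB cluster. The cells were pooled over libraries and not tested.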

How the results depend on the processing

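No named gene that was called in the main fit changed direction under any alternative that was run. Direction was not compared for genes that were not called, which include every irradiation result. Thinning each cell to 3000 UMIs brought the share of cells with a Hox UMI to 18.9% in tumor cells, 84.3% in fibroblasts, 81.2% in pericytes, 78.7% in endothelial cells and 2.83% in immune cells. Leiden clusters in place of gates gave summed levels of 419 CPM in pericytes and 512 CPM in endothelial cells, and a stricter gate gave 8.89 CPM in immune cells. The 3 Hox genes called between fibroblasts and pericytes became 1 with DESeq2, 6 with Leiden clusters and 1 to 2 without each library in turn, and the 15 called between fibroblasts and immune cells became 23 with every gene of at least 1 UMI. The 5 TALE genes called between tumor cells and fibroblasts became 3 with gates that ignore Xist, and the 4 noncoding RNAs called between tumor and endothelial cells became 7 with DESeq2 and 7 with every gene of at least 1 UMI (3 to 6 without each library). The causes were not tested. Leaving out each library gave 15 to 19 Hox genes called between tumor cells and fibroblasts, 16 to 17 against endothelial cells, and summed tumor cell levels of 67.0 to 70.6 CPM. Keeping every gene of at least 1 UMI moved the median of all genes by 0.12 on the log2 scale in tumor cells against fibroblasts, by 0.12 against endothelial cells and by −0.19 in fibroblasts against immune cells.

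Over 72 fits of irradiation, including those with the replicate block and the technical term, 0 Hox genes were called. Tumors of the same replicate number did not deviate together (correlations of −0.45, −0.08 and 0.11 in tumor cells), and the replicate block called 0 Hox genes. Of 161 results on named genes 148 kept their side of the threshold under every alternative run, and 13 did not. The stricter gate left too few fibroblasts, pericytes or endothelial cells for their comparisons and was not run there, nor was the replicate block in fibroblasts. Depth limits the stromal classes most, where 3 UMIs are 0.985 CPM in fibroblasts and 1.62 CPM in pericytes against 0.00821 CPM in tumor cells.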
